A study of Oryza sativa Japonica Group with 30 samples.

Results

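The sucrose synthase family of rice was examined in whole caryopses, that is, developing grains together with their fruit coat. Its members were chosen by locus identifier as the genes SUS1 to SUS7, which makes 7 of the 55801 genes listed. All 7 symbols were found in the RefSeq gene table (assembly ASM3414082v1) on the chromosome of the locus and near its relative place. The relative place of a locus is the number in its identifier over the highest such number on its chromosome. It was set against the RefSeq start of the gene over the last gene end of the chromosome. The differences are thus not distances in bases. The tolerance was 0.03 on this scale, chosen after seeing the data. Differences ran from 0.0001 for SUS3 to 0.0226 for SUS7 and 0.0287 for SUS2, so the match is approximate. Total RNA from 30 samples, 3 in each of 10 groups, was collected at 7 days after pollination from field-grown plants. There were 5 genotypes: wild-type ZH11, overexpressors of ONAC127 (OX-ONAC127) and of ONAC129 (OX-ONAC129), and a mutant of each gene (CR-ONAC127 and CR-ONAC129). Both genes code for NAC transcription factors. Each genotype was grown under natural heat stress, with about 6 h a day above 35 °C and peaks of about 40 °C, and under normal cultivation, with only 3 days above 35 °C and daytime temperatures averaging about 30 °C. The labels used here name neither the promoter of the overexpression lines nor the number of independent lines, and whether samples within a group are separate plants is not stated.

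The data hold 1 value per gene, the authors' mean of normalised read counts (counts divided by a library's size factor) over all 30 libraries. The 8 tables, each named for a transgenic line against ZH11, hold the same values, so levels per genotype or condition and their tests are not analysed here. Every level below is pooled over all genotypes and both conditions, with no SD between samples. The pooled means summed to 11614572 normalised counts, and 40831 genes lay above 0, with a median of 15.9. Depending on the library, a single read added from 0.0203 to 0.0605 normalised counts to a mean. From these limits follow the fewest and the most reads that can lie behind a value and the largest counting error it can have, which covers counting error only and assumes independent reads.

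Sucrose synthase splits sucrose with UDP into fructose and UDP-glucose, in a reaction that can run both ways. In grains and other sink organs it is the main entry of imported sucrose into metabolism beside the invertases: the UDP-glucose can be turned into glucose 1-phosphate for ADP-glucose and starch, or used for cell walls. In maize, loss of the endosperm sucrose synthase encoded by Shrunken1 leaves a collapsed kernel. In rice, SUS3 and SUS4 are known as genes of the caryopsis, and SUS2 is known to be expressed widely in the plant.

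Reads of the family came nearly all from 4 of its 7 genes, and most of them from 1. SUS3 alone held 70.4% of the family sum of 40826 normalised counts, which was 2.37 times the other 6 members together. SUS2 followed with 19.2%, SUS4 with 7.36% and SUS1 with 3.06%. SUS5, SUS6 and SUS7 together held 0.0271%, or 11.1 normalised counts. The family as a whole took 0.352% of all normalised counts of the profile.

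SUS3 (LOC_Os07g42490, chromosome 7) had 28727 normalised counts, with a largest counting error (SD) of 41.7. It ranked 24 of 55801 genes, and between 475074 and 1417031 reads lie behind this value. Its share of the family carried a counting error of at most 0.0556 percentage points.

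SUS2 (LOC_Os06g09450, chromosome 6) had 7836 normalised counts, with a counting error of at most 21.8, and ranked 189. SUS3 stood 3.67-fold above it in normalised counts, and 164 genes lay between them. SUS4 (LOC_Os03g22120, chromosome 3) had 3003 normalised counts with an error of at most 13.5, ranked 643 and lay 2.61-fold below SUS2.

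SUS1 (LOC_Os03g28330, chromosome 3) was the lowest of the 4 strongly read members. It had 1248 normalised counts with an error of at most 8.69 and ranked 1719, so that it too lay above 96.9% of all genes. SUS4 stood 2.41-fold and SUS3 23.0-fold above it. Each step in the order SUS3, SUS2, SUS4, SUS1 was far larger than the counting error of the difference, which was at most 47.0, 25.6 and 16.0 normalised counts for steps of 20891, 4834 and 1755. Whether these steps also exceed the spread between samples cannot be told from a pooled mean.

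Below SUS1 the family broke off. The next member, SUS6, had a value 158 times lower than SUS1, and 21083 genes lay between the 2. No other neighbours in the order were more than 3.67-fold apart. For their levels per length to be equal, the transcripts of SUS1 and SUS6 would have to differ 158-fold in length. Transcript lengths were not used here, so all ratios are between read totals and not between levels per length.

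SUS6 (LOC_Os02g58480, chromosome 2) had 7.92 normalised counts, with a counting error of at most 0.692, and between 131 and 390 reads over all libraries. SUS5 (LOC_Os04g24430, chromosome 4) had 2.16 normalised counts with an error of at most 0.362, from 36 to 106 reads. SUS7 (LOC_Os04g17650, chromosome 4) had 0.996 normalised counts with an error of at most 0.245, from 17 to 49 reads. All 3 thus had reads counted to them, and all 3 lay below the median of 15.9 of the genes above 0.

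SUS6 exceeded SUS5 3.66-fold, by 5.76 normalised counts against a counting error of at most 0.781. SUS5 exceeded SUS7 2.17-fold, by 1.17 normalised counts against a counting error of at most 0.437, and their widest 95% counting intervals, from 1.46 to 2.87 and from 0.515 to 1.48, just met. The order of SUS5 and SUS7 is therefore, by counting error, the least certain step of the family. By share of the family sum, SUS6 held 0.0194%, SUS5 0.00530% and SUS7 0.00244%.

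For every 10000 normalised counts of SUS3 there were 2.76 of SUS6, 0.754 of SUS5 and 0.347 of SUS7. How reads that match more than 1 family member were counted is not given in the sources used here, so values this small beside a strongly read relative are uncertain, and the part of shared reads in them was not tested.

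**Figure D1:**
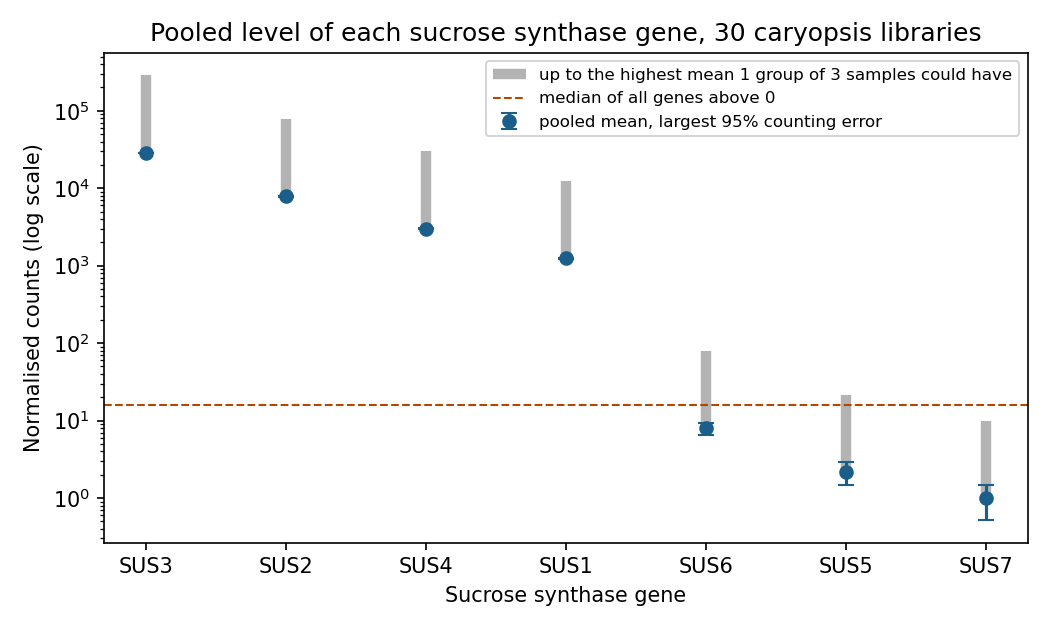
Pooled mean normalised counts (log axis) of the 7 sucrose synthase genes, in falling order. Points are the authors' pooled means over 30 libraries, error bars the largest 95% counting error, grey bars reach up to the highest mean that 1 group of 3 samples could have, and the dashed line is the median of all genes above 0 (15.9). SUS3, SUS2, SUS4 and SUS1 lie between 28727 and 1248, and SUS6, SUS5 and SUS7 between 7.92 and 0.996.

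A pooled mean hides which samples carried the reads, but it limits what any group can have held. Since no library can fall below 0, the mean of 1 group of 3 cannot exceed 10 times the pooled mean. SUS7 can therefore have reached at most 9.96 normalised counts in any genotype and condition, SUS5 at most 21.6 and SUS6 at most 79.2. Even if all reads of these 3 genes had come from the same group, their sum there would have been at most 111. The pooled mean of SUS1 was 1248, but its level in any single group is not known. Whether SUS1 lay above these 3 genes in every group is therefore not fixed by the pooled values.

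For the 4 strongly read members the same limit is wide. SUS1 can have reached at most 12483 in a group, SUS4 at most 30028 and SUS2 at most 78365, while SUS3 reached 28727 or more in at least 1 group. The order of these 4 within any single group is thus not fixed by the pooled values, and a rise or fall of SUS3 with genotype or heat cannot be seen in them.

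Placed in the whole profile, the members fell on both sides of the middle. SUS3 lay above 99.96% of all genes, SUS2 above 99.66% and SUS4 above 98.8%. SUS6 lay above 59.1%, SUS5 above 52.6% and SUS7 above 49.0%. These last percentages include the 14970 genes listed at 0: among genes above 0 alone, SUS6, SUS5 and SUS7 lay above 44.2%, 35.2% and 30.4%. The family median, which is SUS1 at 1248, stood beside a median of 15.9 over all genes above 0, and 4 of 7 members reached 1000 normalised counts, as did 2109 of all genes.

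**Figure D2:**
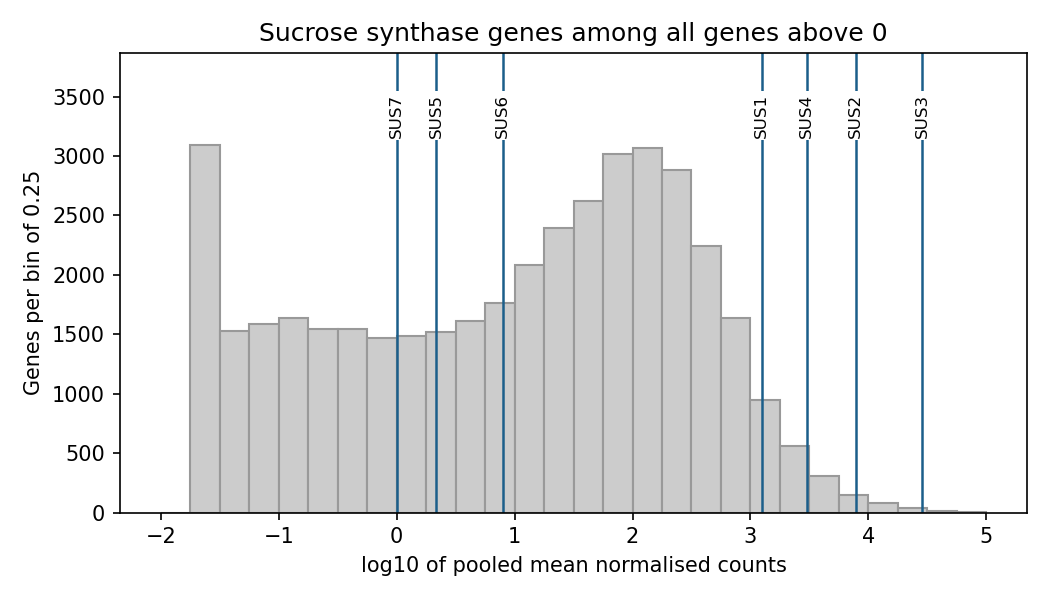
Number of genes per bin of 0.25 on the log10 scale of pooled mean normalised counts, for all genes above 0, with a line for each sucrose synthase gene. SUS1, SUS2, SUS3 and SUS4 lie in the upper tail, and SUS5, SUS6 and SUS7 lie below the median of 15.9.

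The members lie on 5 chromosomes. SUS4 and SUS1 share chromosome 3 with 524 listed loci between them, and SUS7 and SUS5 share chromosome 4 with 617 between them, so no members are direct neighbours. Each of the 4 strongly read members had more normalised counts than all 10 loci around it (5 on each side). Even SUS1, the lowest of them, lay above 96.9% of all genes, and ranks this high already make such a result likely. How often other genes of like rank top their surroundings was not counted. Around SUS2, the highest was LOC_Os06g09390 with 1313 and the median 0.0614, and 4 of the 10 were listed at 0. Around SUS3, the highest was LOC_Os07g42450 with 2704 and the median was 7.71. Around SUS4 and SUS1 the highest had 414 and 74.0. With 10 loci on each side SUS1 was no longer the highest, since LOC_Os03g28410 had 2587.

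Among the 3 low members, the surroundings of SUS6 differed from those of SUS5 and SUS7. SUS6 lay below 9 of its 10 flanking loci, none of which was at 0, with a flanking median of 30.9 and 267 normalised counts in the next locus, LOC_Os02g58490. SUS5 and SUS7 lay among loci with few reads, with flanking medians of 0.0505 and 0.0995 and 4 of 10 loci at 0 around each. Such surroundings were not particular to low members. The strongly read SUS1 and SUS2 had flanking medians of 0.678 and 0.0614, also with 4 of 10 loci at 0. Around SUS3 and SUS4 the medians were 7.71 and 6.38. SUS5 and SUS7 also each adjoined a well-read locus. LOC_Os04g24414 beside SUS5 had 330 normalised counts, and LOC_Os04g17660 beside SUS7 had 378, which was 380 times the value of SUS7. The files carry no annotation of these flanking loci.

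Other genes that handle sucrose and its products were read from a list of 36 loci. Of these, 21 could be named because their symbol was found in the reference near the relative place of the locus. The median of these 21 was 255 normalised counts, and 2 of them reached 1000, as did 2109 of all 55801 genes. The list was drawn from the sucrose to starch route, so both lie on this route by choice. FRK2, a fructokinase that phosphorylates the fructose set free by sucrose cleavage, had 15622 normalised counts, against 607 for FRK1, the other listed fructokinase. AGPS2, a small subunit of ADP-glucose pyrophosphorylase, which makes the glucosyl donor of starch, had 8544. For ADP-glucose pyrophosphorylase, 1 of 2 listed loci was named. SUS3 was the only named gene of these routes above FRK2.

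The 10 hexokinases, which phosphorylate glucose, ranged from 1.88 normalised counts for HXK1 to 893 for HXK6, with a median of 123. None reached 1000, as was true of most genes in the profile. Like the sucrose synthases, this family thus had members below 10 normalised counts: HXK10 had 9.41, near SUS6, and HXK1 lay between SUS5 and SUS7. HXK6, also known as a glucose sensor, stood below SUS1.

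None of the named genes for making sucrose reached 1000 normalised counts, a level that only 2109 of all 55801 genes reached. The sucrose phosphate synthases SPS6, SPS8 and SPS2 had 273, 255 and 231 normalised counts, and the sucrose phosphatases SPP2 and SPP1, which complete the synthesis, had 128 and 58.2. NIN1, a neutral invertase and so an enzyme that splits sucrose into glucose and fructose, had 71.4. Phosphoglucose isomerases, which interconvert glucose and fructose phosphates, had 529 for PGIb and 336 for PGIa. All of these lay above SUS6 and below SUS1. Other loci of these groups were not named, so the group levels are incomplete, above all for the neutral invertases with 1 of 7 loci named.

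**Figure D3:**
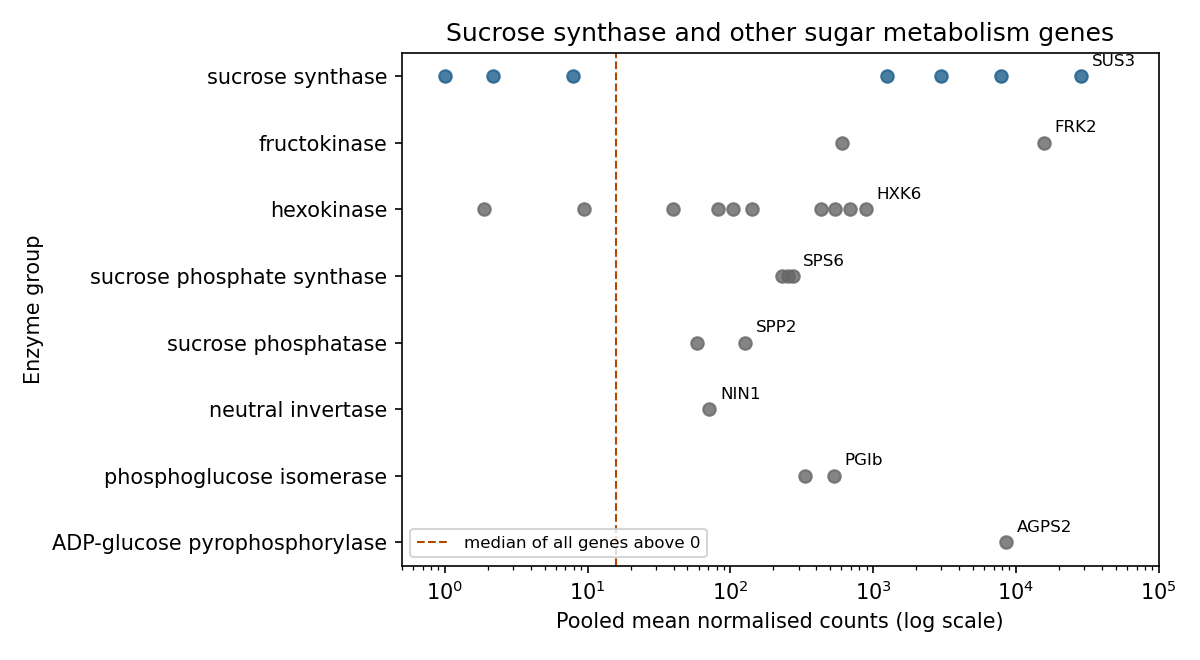
Pooled mean normalised counts (log axis) of each named gene, in rows by enzyme group, with the highest gene of each row labelled. The sucrose synthases span from 0.996 to 28727, the hexokinases from 1.88 to 893, and the sucrose phosphate synthases from 231 to 273, with the median of all genes above 0 (15.9) as a dashed line.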

How the data were processed

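Per the submitters' processing notes, CASAVA 1.7, HISAT2 2.0.5 and DESeq2 were used. Not given in the sources used here are the read counter, its handling of shared reads and of strand, the genome build and the annotation. The 8 deposited tables were read as text versions of workbook sheets, and any further columns of the workbooks are not analysed here. The text tables were identical; each held a gene identifier and baseMean, per the file headers, which DESeq2 defines as the mean of counts divided by size factors. Its unit is a signal, deposited by the authors as a mean pooled over 30 samples and not divided by gene length. No test between groups could be made from this column, and 0 columns of single samples were left aside.

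The worth of 1 read in each of the 30 libraries was recovered as the values up to 0.1 that are no sum of smaller ones within 1e-11, which gives size factors from 0.551 to 1.64; the same step was checked on simulated data. Fewest and most reads are the value divided by 0.0605 and 0.0203. The counting variance of a pooled mean cannot exceed 0.0605 times the mean if reads are independent, and 95% intervals use 1.96 times its root. In the shallowest library, 3 reads would add 0.181 normalised counts to a pooled mean. This value is given for scale only and entered no level, error, interval or limit above.

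Members and lists were chosen with earlier results of these data known. Named genes were all 7 members and 21 of 36 listed pathway loci. For these 21, the symbol lay on the same chromosome of ASM3414082v1, within 0.03 of the relative place defined above. Of the rest, 13 had no symbol there and 2 lay elsewhere. This tolerance and the flanking loci were chosen after seeing the data. The design asked for the members of longer groups as a range with the highest and lowest named; HXK10 was named after its value was seen. Sequences, coding lengths and protein identities were not analysed here. The calculations used pandas 2.3.3 and numpy 2.4.6 under Python 3.11.15, with matplotlib 3.10.9 for the figures.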

Additional observations from a re-analysis of the deposited data

How the results depend on the processing

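All 7 members had the same level and share in each of the 8 tables, which are identical, so this is no check of the values. Among genes above 0 the percentage of genes below a member was 95.8 for SUS1, 99.54 for SUS2, 99.94 for SUS3, 98.4 for SUS4, 35.2 for SUS5, 44.2 for SUS6 and 30.4 for SUS7, and among genes of at least 10 normalised counts it was 92.2 for SUS1, 99.1 for SUS2, 99.89 for SUS3 and 97.1 for SUS4. These move because fewer genes are counted. Without SUS3 in the sum, the shares were 10.3% for SUS1, 64.8% for SUS2, 24.8% for SUS4, 0.0179% for SUS5, 0.0655% for SUS6 and 0.00823% for SUS7. The median of the named pathway genes was 273 with those under 10 left out. With SUS1 to SUS4 only, no share moved beyond its counting error, as must follow when the members left out hold 0.0271% of the sum. With 10 flanking loci on each side 3 members, in place of 4, stood above all of them. With a tolerance of 0.05 or 0.1 on the relative place 22 pathway loci, in place of 21, could be named, and 30 steps were also found with values searched up to 0.08. The alternatives on flanking loci, tolerance and search were chosen after seeing the data. Division by length, protein alignment and omission of single replicates were not run, since they need lengths, sequences or values per sample. No paired analysis was possible because replicates were averaged into 1 value per gene. Every value given is an average over genotypes and conditions and dilutes a change in any of them.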
